A study of Homo sapiens with 9 samples.

Results

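The genes described here form the YAP1 and BIRC2/BIRC3 locus on the long arm of human chromosome 11 (11q22). They are TRPC6, ANGPTL5, CFAP300, YAP1, BIRC3, BIRC2, TMEM123, DCUN1D5 and DYNC2H1, given in chromosomal order, and they are 9 of the 52158 named genes in the deposited count table. They were chosen by their counts, as a block of neighbours with high values in 1 library, the one labelled OAC_5.1_C. Their levels in that library are therefore a description, with no test, also where they are set beside other genes below.

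Total RNA was sequenced from 9 established human lines of oesophageal adenocarcinoma, labelled with the gastric cardia as source. They are ESO-26, ESO-51, FLO-1, JH_EsoAd1, OACP4_C, OAC_5.1_C, OE19, OE33 and SK-GT-4, all untreated and grown to 80% confluency, with no added allele or agent named in the labels. Each line gave 1 column of counts. Technical replicates, 3 for every line, are named in the design text, and their place in a column was not given in the sources used here. Differences between lines therefore have no replicate check, and no p-value is given.

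Library totals ranged from 16801179 counts (ESO-26) to 69881539 counts (FLO-1), and mitochondrial genes took 1.48% (ESO-26) to 24.7% (JH_EsoAd1) of them. Each line name below stands for the library labelled with it. Levels are in CPM, the counts of a gene scaled to the depth of its library. OE19 is known as a line that carries an ERBB2 amplification. But the library labelled OE19 had 185 CPM of ERBB2, place 6 of 9, while the library labelled SK-GT-4 had 18325 CPM. The library labelled OE33 had 149 CPM, place 8. The labels of the other libraries, OE33 among them, were not checked against known traits of the lines. Summed epithelial markers (EPCAM, CDH1, KRT8, KRT18, KRT19, CLDN4 and ELF3) reached 14504 CPM in OAC_5.1_C and were lowest in ESO-26 (163 CPM) and OE33 (1205 CPM). In OAC_5.1_C the summed haematopoietic markers stood at 3.56 CPM, the endothelial markers at 5.12 CPM and the fibroblast markers at 46.0 CPM, of which LUM made up 30.1 CPM and COL1A1 15.3 CPM. In the other 8 libraries these sums spanned 0.173 (ESO-26) to 2090.5 CPM (SK-GT-4, where LYZ alone made up 2089.9 CPM), 0.0577 to 30.6 CPM and 1.92 (OE19) to 329.7 CPM (ESO-26), and their part in the results was not tested.

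YAP1 encodes a transcriptional coactivator that binds TEAD factors and is held in the cytoplasm when the Hippo kinases phosphorylate it. BIRC2 and BIRC3 encode cIAP1 and cIAP2, ubiquitin ligases of tumour necrosis factor receptor complexes that restrain the kinase NIK of the non-canonical NF-kB pathway, and BIRC3 is itself an NF-kB target gene. The chromosome segment that holds these genes is known as a site of recurrent amplification in several carcinomas. DNA copy number was not measured here.

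The promoters of the coactivator and of both cIAP genes are shown because the results turn on these 3 genes, of which BIRC3 varied far more between lines than its neighbour BIRC2. RefSeq, on build GRCh38.p14, gave the start region of 8 of the 9 genes, and CFAP300 had no entry. Each sequence runs 5′ to 3′ on the gene's own strand from 250 bases before to 50 bases after the start site, and capitals mark motif matches.
YAP1 at chr11:102110197-102110496, plus strand: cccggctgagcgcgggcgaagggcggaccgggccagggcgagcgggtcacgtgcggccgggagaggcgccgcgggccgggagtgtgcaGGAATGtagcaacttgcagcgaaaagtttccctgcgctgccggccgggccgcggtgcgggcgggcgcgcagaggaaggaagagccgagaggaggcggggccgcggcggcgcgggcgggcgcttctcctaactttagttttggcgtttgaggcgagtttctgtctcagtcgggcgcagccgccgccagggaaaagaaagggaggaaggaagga
BIRC3 at chr11:102317234-102317533, plus strand: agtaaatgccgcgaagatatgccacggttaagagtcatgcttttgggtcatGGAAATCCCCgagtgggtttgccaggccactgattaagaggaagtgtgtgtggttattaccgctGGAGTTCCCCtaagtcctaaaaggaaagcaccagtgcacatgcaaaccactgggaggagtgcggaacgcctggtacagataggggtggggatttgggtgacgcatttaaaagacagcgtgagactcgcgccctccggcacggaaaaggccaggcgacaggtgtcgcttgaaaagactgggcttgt
BIRC2 at chr11:102346964-102347263, plus strand: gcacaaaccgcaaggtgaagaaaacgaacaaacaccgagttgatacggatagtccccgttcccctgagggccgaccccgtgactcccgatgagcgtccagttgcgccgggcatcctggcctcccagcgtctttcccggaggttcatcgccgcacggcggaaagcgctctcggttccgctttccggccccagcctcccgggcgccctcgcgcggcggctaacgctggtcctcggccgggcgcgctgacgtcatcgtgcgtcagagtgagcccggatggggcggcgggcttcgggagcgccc

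Both strands were searched for the NF-kB consensus by its usual pattern, for the TEAD core GGAATG and for the AP-1 core TGANTCA. The BIRC3 window held 2 matches to the NF-kB consensus, both on the minus strand, at 199 to 190 and at 135 to 126 bases before the start site. The YAP1 window held 1 TEAD core, 162 to 157 bases before the start site, and the BIRC2 window held none of the 3 motifs. No other locus gene with an entry held a match. Among 34796 human promoter windows of the same length, 11.3% held the NF-kB consensus, 14.0% the TEAD core and 7.73% the AP-1 core. A match is a run of letters in this window and no measured binding site.

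YAP1 had 1429.9 CPM in OAC_5.1_C, with an exact Poisson 95% interval of 1419 to 1441 CPM. It had 218 CPM in OACP4_C, 213 in SK-GT-4, 169.8 in JH_EsoAd1, 159.7 in OE33, 159 in ESO-51, 81.8 in OE19, 59.0 in FLO-1 and 28.3 in ESO-26. OAC_5.1_C lay above all other libraries, at 8.98 times their median and 6.55 times the next library, OACP4_C. Among the other 8, the intervals of OACP4_C and SK-GT-4 overlapped, those of OE33 overlapped both JH_EsoAd1 and ESO-51, and the remaining 3 stood apart from each other and from these. The log2 difference of OAC_5.1_C from the median of the other 8 was 3.16, where the log2 values of those 8 had an SD of 1.03. These intervals cover counting error only, and fewer cells with a transcript and less of it per cell cannot be told apart in bulk RNA.

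BIRC2 had 763 CPM in OAC_5.1_C (755 to 771). It had 91.7 CPM in OACP4_C, 85.8 in ESO-51, 82.0 in JH_EsoAd1, 75.9 in SK-GT-4, 75.8 in OE33, 51.9 in FLO-1, 47.9 in ESO-26 and 43.9 in OE19. cIAP1 transcript was thus nearly even outside OAC_5.1_C, where the highest of the other 8 was 2.09 times the lowest. The intervals of ESO-51, JH_EsoAd1, SK-GT-4 and OE33 formed a chain in which neighbours overlapped, and those of FLO-1 with ESO-26 and of ESO-26 with OE19 overlapped too. OAC_5.1_C stood at 10.1 times the median of the other 8 and 8.32 times OACP4_C, a log2 difference of 3.31 beside an SD of 0.41 among the other 8.

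BIRC3 varied far more between lines. It had 1814 CPM in OAC_5.1_C (1803 to 1827), 146 in FLO-1, 112 in OE33, 83.6 in OACP4_C, 24.5 in ESO-51, 18.4 in SK-GT-4, 11.4 in JH_EsoAd1, 6.52 in OE19 and 0.807 in ESO-26, where it rested on 14 counts. No 2 libraries had overlapping intervals, and the other 8 spanned a 180.4-fold range with an SD of 2.17 on the log2 scale. OAC_5.1_C stood at 84.7 times their median and 12.5 times FLO-1, with a log2 difference of 6.35. BIRC2 and BIRC3 are related in sequence, so the split of reads between them is uncertain where the authors' counting could share them.

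TMEM123, which encodes a membrane mucin-like protein also named porimin, lies beyond BIRC2. It had 4873 CPM in OAC_5.1_C, 752 in OACP4_C, 464 in OE33, 437 in JH_EsoAd1, 433 in ESO-51, 429 in SK-GT-4, 413 in FLO-1, 378 in ESO-26 and 222 in OE19. Apart from OACP4_C and OE19 the other libraries sat close together, and OAC_5.1_C stood at 11.3 times the median and 6.48 times OACP4_C. Per length it ranked 25 among tested genes in OAC_5.1_C by the deposited FPKM, the fragments per length and depth, where BIRC3 ranked 98, YAP1 143, DCUN1D5 395 and BIRC2 442.

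DCUN1D5 encodes a cofactor that promotes attachment of NEDD8 to cullins. Its level was 395 CPM in OAC_5.1_C, 64.7 in ESO-26, 40.3 in OACP4_C, 39.9 in JH_EsoAd1, 37.8 in OE19, 37.1 in ESO-51, 33.3 in FLO-1, 30.2 in SK-GT-4 and 27.9 in OE33. As with BIRC2, the other 8 were even (2.32-fold from lowest to highest), and OAC_5.1_C stood at 10.5 times their median and 6.10 times ESO-26.

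The cilium genes of the locus followed other orders. CFAP300, needed for assembly of the dynein arms of motile cilia, had 58.0 CPM in OAC_5.1_C, 11.9 in FLO-1, 11.4 in JH_EsoAd1, 8.33 in OACP4_C, 4.09 in ESO-26, 3.85 in OE19, 3.09 in OE33, 1.27 in ESO-51 and 0.225 (7 counts) in SK-GT-4. OAC_5.1_C lay 4.89 times above FLO-1. DYNC2H1, the heavy chain of the dynein that carries cargo back down the cilium, had 206 CPM in ESO-26, 172 in OAC_5.1_C, 92.3 in OE33, 45.7 in JH_EsoAd1, 31.3 in FLO-1, 29.3 in OACP4_C, 19.3 in ESO-51, 11.6 in OE19 and 2.31 in SK-GT-4. It was the single tested gene of the locus that was not highest in OAC_5.1_C, standing at 0.833 times ESO-26 and at 5.67 times the median of the other 8.

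TRPC6, a calcium-permeable channel, and ANGPTL5, an angiopoietin-like secreted protein, stayed near 0. TRPC6 had 13 counts in OAC_5.1_C (0.268 CPM, interval 0.142 to 0.458), 4 in SK-GT-4, 2 in ESO-51 and 0 in the other 6 libraries. ANGPTL5 had 10 counts in JH_EsoAd1 (0.496 CPM), 7 in OAC_5.1_C, 4 in ESO-51, 2 in FLO-1 and 0 in the other 5. A count of 0 allows up to 3 counts, which is 0.0400 CPM in FLO-1 and 0.173 CPM in ESO-26. Neither gene reached 1 CPM in any library, so neither entered the comparisons that follow, and the 7 remaining genes did.

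**Figure D1:**
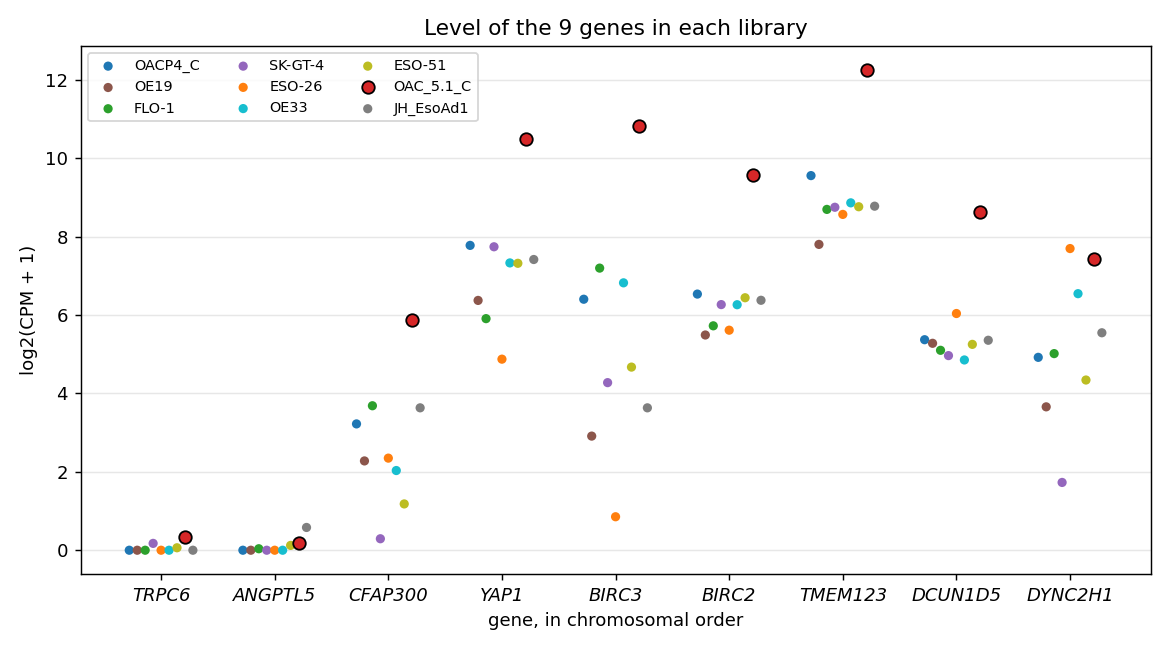
Level of the 9 genes, in chromosomal order, as log2(CPM + 1) in each of the 9 libraries, 1 point per library with no error bar because each line has 1 library. OAC_5.1_C is the top point for 6 genes, ESO-26 is the top point for DYNC2H1, and TRPC6 and ANGPTL5 lie near 0 in all 9.

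In OAC_5.1_C, 7 of the 7 tested locus genes lay at least 2-fold above the median of the other 8 libraries, on the log2(CPM + 1) scale, where 12.2% of 19719 tested genes did. A further rule asked for at least 4-fold above the highest other library and at least 5 CPM, and 6 of 7 passed it, where 0.649% of tested genes did. The rule that chose the genes used this contrast, so nothing is read from either count. The median difference over the 7 genes was 3.36 on the log2 scale, and over all tested genes it was 0.00. Together the 9 genes took 0.912% of all counts in OAC_5.1_C (Wilson 95% interval 0.909% to 0.915%), against 0.0382% (OE19) to 0.122% (OACP4_C) in the other 8.

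The direction differed among the other 8 libraries, whose own values were not what the genes were chosen for. The median each was compared with does include OAC_5.1_C, for whose high values the genes were chosen. That raises the median, so a library was less easily called above and more easily called below. In OACP4_C 6 of 7 genes lay above the median of the remaining libraries, with a median difference of 0.45, but BIRC3 was the single gene at least 2-fold above, where 10.6% of tested genes were, and none was at least 2-fold below (6.09%). In the library labelled OE19 0 of 7 lay above the median, with a median difference of -0.97, and YAP1, BIRC3 and DYNC2H1 were at least 2-fold below, where 11.6% of tested genes were. In FLO-1 BIRC3 and CFAP300 were at least 2-fold above (14.4% of tested genes) and YAP1 was at least 2-fold below (5.64%).

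The remaining libraries split the locus in other ways. ESO-26 had DYNC2H1 at least 2-fold above (12.0% of tested genes) and YAP1 and BIRC3 at least 2-fold below (14.4%). OE33 had BIRC3 and DYNC2H1 above (12.8%) and none below (10.9%), and JH_EsoAd1 had CFAP300 above (11.2%) and BIRC3 below (5.59%). SK-GT-4 had none above (12.4%) and BIRC3, CFAP300 and DYNC2H1 below (8.97%), and ESO-51 had none above (12.0%) and CFAP300 below (10%). BIRC2, TMEM123 and DCUN1D5 passed neither 2-fold rule in any of these 8 libraries.

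Ratios between the genes were taken per length, from the deposited FPKM within each library. The ratio of TMEM123 to BIRC2 was 10.6 in OAC_5.1_C and 8.41 to 13.7 in the other 8, that of YAP1 to BIRC2 was 2.47 against 0.777 to 3.69, and that of DCUN1D5 to BIRC2 was 1.11 against 0.790 to 2.90. For all 3 pairs OAC_5.1_C lay inside the range of the other libraries. The ratio of BIRC3 to BIRC2 was 3.32 in OAC_5.1_C (95% interval 3.28 to 3.36), 3.92 in FLO-1, 2.07 in OE33, 1.27 in OACP4_C, 0.398 in ESO-51, 0.338 in SK-GT-4, 0.207 in OE19, 0.194 in JH_EsoAd1 and 0.0235 in ESO-26. Per length, cIAP2 transcript thus exceeded cIAP1 transcript in 4 libraries and lay below it in 5, and the highest ratio was that of FLO-1. In OACP4_C the side depends on the gene lengths, as BIRC3 had 4845 counts and BIRC2 had 5313. The uncertain split of reads between BIRC2 and BIRC3 applies to these ratios too. DYNC2H1 to BIRC2 was 0.177 in OAC_5.1_C, near the 0.177 of ESO-51, and 3.39 in ESO-26.

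**Figure D2:**
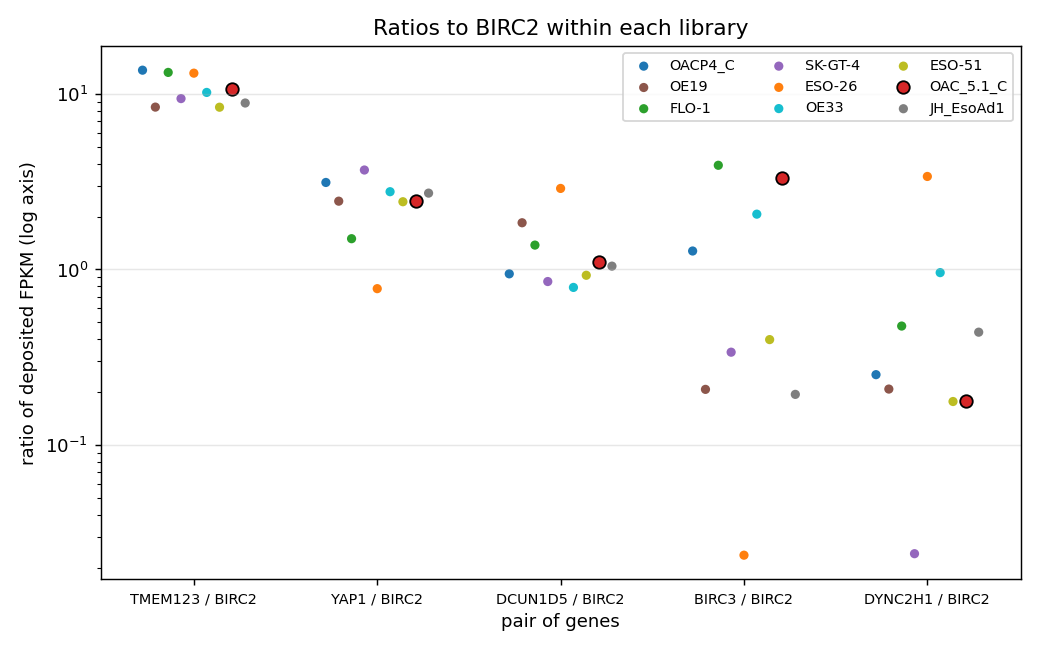
Ratio of the deposited FPKM of each gene to that of BIRC2 within each of the 9 libraries, on a log axis, 1 point per library. For all 5 pairs OAC_5.1_C lies within the spread of the other 8, and BIRC3 to BIRC2 and DYNC2H1 to BIRC2 spread most.

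Over the 9 libraries the 21 pairs of tested locus genes had a median Pearson r of 0.66 (0.05 to 0.97) on log2(CPM + 1), as a description in which every point shares its library. Without OAC_5.1_C, over 8 libraries, the median was 0.17 (-0.75 to 0.86) and 9 of 21 pairs were negative. YAP1 and BIRC2 kept an r of 0.86 (0.91 with OAC_5.1_C), and BIRC2 and TMEM123 had 0.78 (0.97 with it). BIRC3 and DCUN1D5 had 0.54 with OAC_5.1_C and -0.75 without it.

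The genes most like each of 3 locus genes were taken by Pearson r over the 9 libraries among 14580 genes of at least 5 CPM in at least 1 library. As this ranking includes OAC_5.1_C, it shares the values the genes were chosen for. For BIRC2 they were UBE2L5 (0.977), TMEM123 (0.974), CWC15 (0.974), FAM71D (0.967) and CD69 (0.964), of which TMEM123 and CWC15 lie on chromosome 11. For YAP1 they were DGCR11 (0.963), NEURL1 (0.934), CCDC85C (0.925), LSR (0.924) and CLIC5 (0.924). For BIRC3 they were AC006547.1 (0.984), PPP3CB-AS1 (0.930), ANKRD28 (0.915), ACP7 (0.915) and CRISPLD2 (0.910). Ranked over the 8 libraries without OAC_5.1_C, the 5 most like YAP1 were HOXB7 (0.977), RHBDF1 (0.953), HNRNPKP4 (0.942), DDX12P (0.936) and MADD (0.932). Those most like BIRC2 were AC010186.3 (0.971), AC010186.2 (0.969), PCNX3 (0.961), FAM111A-DT (0.959) and ALKBH8 (0.959). Those most like BIRC3 were AC006547.1 (0.982), MAPRE1 (0.966), PPP3CB-AS1 (0.961), SARM1 (0.946) and CYB5R2 (0.938). AC006547.1 and PPP3CB-AS1 were in both BIRC3 rankings, and no gene was in both rankings for YAP1 or for BIRC2. In the rankings without OAC_5.1_C, MADD, PCNX3, FAM111A-DT, ALKBH8 and CYB5R2 lie on chromosome 11. Each ranking takes the top 5 of 14580 genes over 9 or 8 points, and chance as a source of such r values was not tested.

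The stretch from TRPC6 to DYNC2H1 holds 19 protein-coding genes in the annotation order, of which 18 matched the table and 14 reached 1 CPM in at least 1 library. In OAC_5.1_C 11 of these 14 lay at least 2-fold above the median of the other 8 and 1 lay at least 2-fold below. The 11 include the 7 tested locus genes, chosen for high values there, so nothing is read from that count. Among the 7 tested genes that were not chosen, 4 lay above and 1 below, where 12.2% and 6.97% of all tested genes did. Of those 4, MMP20 reached 1 CPM in OAC_5.1_C alone and so had to differ. CEP126, a centrosome and cilium base protein next to CFAP300, had 39.3 CPM in OAC_5.1_C, and the next library, JH_EsoAd1, had 19.8. MMP20, a metalloproteinase of tooth enamel, had 7.80 CPM in OAC_5.1_C and at most 0.466 elsewhere, and MMP13, a collagenase, had 3.15 against at most 1.59.

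The metalloproteinases between TMEM123 and DCUN1D5 did not share 1 pattern. MMP7, matrilysin, had 40.7 CPM in OAC_5.1_C but 405 in OACP4_C, with a median of 0.584 over the other 8. MMP1, interstitial collagenase, had 1.07 CPM in OAC_5.1_C and 2521 in the library labelled OE19, and it was the tested gene of the stretch that lay at least 2-fold below. MMP10 and MMP3, the stromelysins, stood at 0.185 and 0.0206 CPM in OAC_5.1_C, and OE19 had 82.7 CPM of MMP10 and 1.46 of MMP3. MMP8 had 5 counts and MMP27 had 0 in OAC_5.1_C, while MMP12 had no match in the table. Of the 6 tested genes of this metalloproteinase list, 3 lay above, MMP20 among them, and 1 below, with a median difference of 0.73. Among all tested genes 12.2% lay above and 6.97% below. With a pseudocount of 5, 2 of the 6 lay above and 0 below.

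On the side before TRPC6, 8 of the 10 nearest protein-coding genes were tested and 2 lay at least 2-fold above in OAC_5.1_C (12.2% of all tested genes did), with a median of 0.27. ARHGAP42 had 343 CPM in OAC_5.1_C and 103 in FLO-1, the next library. MAML2, a Notch coactivator, had 61.5 CPM in OAC_5.1_C and 85.7 in OACP4_C. SESN3, FAM76B, CEP57, MTMR2, CCDC82 and JRKL differed by -0.19 to 0.77 on the log2 scale, and CNTN5 and PGR were below 1 CPM in all libraries.

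On the side after DYNC2H1, 9 of the 10 nearest were tested. Of these, 0 lay at least 2-fold above and 1 below, where 12.2% and 6.97% of all tested genes did. With 9 genes, such counts are near those shares. The gene below was CASP1, the inflammatory caspase, at 0.412 CPM against a median of 2.29. The median over these 9 was -0.09. The other tested ones were PDGFD, DDI1, CASP4, CASP5, CARD16, CARD17, CARD18 and MSANTD4, with differences from -0.90 to 0.00, and GRIA4 was below 1 CPM throughout. None of these 10 genes was highest in OAC_5.1_C.

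Over longer stretches, 13 of the 30 tested coding genes before CEP126 lay at least 2-fold above in OAC_5.1_C and 1 below, with a median of 0.95, where 12.2% of all tested genes lay above and 6.97% below. Of the 30 after DYNC2H1, 3 lay above and 2 below, near those shares, with a median of -0.22. Among the first group AMOTL1, an angiomotin that binds YAP, had a difference of 3.05, and ENDOD1 and CWC15 had 1.54 and 1.45 (chosen after their values were seen). AMOTL1 was also high in JH_EsoAd1 and OACP4_C, with differences of 2.07 and 1.98. Over all of chromosome 11, 128 of 832 tested genes (15.4%) lay above, with a median of -0.01.

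**Figure D3:**
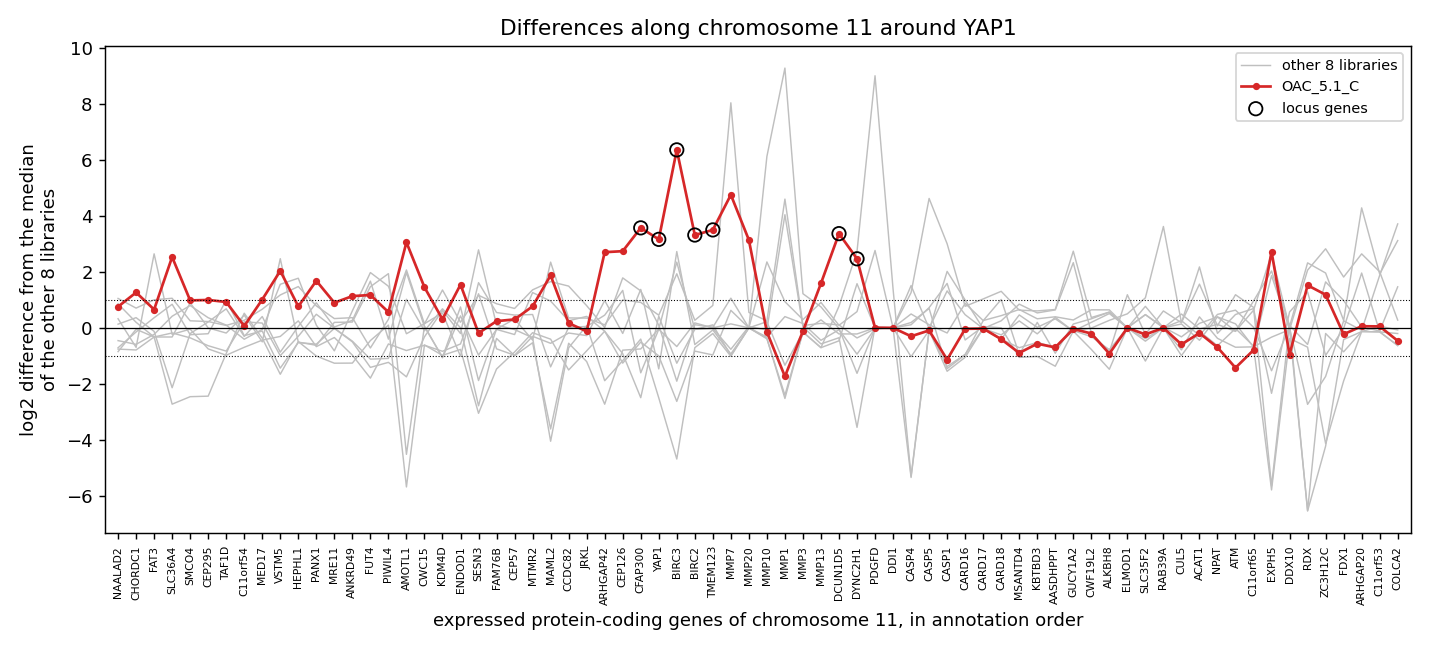
Difference of each library from the median of the other 8, in log2(CPM + 1), for tested protein-coding genes of chromosome 11 in annotation order around YAP1, with OAC_5.1_C in red, the other 8 libraries in grey and the locus genes ringed. Dotted lines mark 2-fold, and the red line is above 3 at CFAP300, YAP1, BIRC3, BIRC2, TMEM123 and DCUN1D5 and at AMOTL1, MMP7 and MMP20, which were not chosen, while the 9 tested genes next after DYNC2H1 lie between -1.13 and 0.00.

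Noncoding genes of the stretch were mostly silent. Of 27 in the table, 3 reached 1 CPM in at least 1 library and 2 of them lay at least 2-fold above in OAC_5.1_C (12.2% of all tested genes did), namely AP000851.1 (5.84 CPM), antisense to MMP20, and AP001486.2 (15.6 CPM). AP000851.1 reached 1 CPM in OAC_5.1_C alone and so had to differ. These names were chosen after their values were seen. None of the 3 overlaps a locus gene, and the strand setting of the counting is not given, so reads of MMP20 and AP000851.1 cannot be told apart. The antisense genes AP000942.2 in YAP1 and AP001830.1 in TMEM123 had 1 and 40 counts in OAC_5.1_C.

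Target genes of YAP are described from a list drawn up with earlier results of these data known. All 25 listed genes were tested, 21 lay at least 2-fold above the median of the other 8 (12.2% of all tested genes did) and 0 lay below, with a median of 2.05 against 0.00 over all genes. OAC_5.1_C was the highest of the 9 libraries for 14 of the 25. ANKRD1, a nuclear ankyrin-repeat protein, had 323 CPM there, 66.3 in OACP4_C and at most 6.24 in the other 7. IGFBP3, an insulin-like growth factor carrier, had 2608 CPM, with 659 in OACP4_C and 649.9 in OE19 next. TGFB2, a growth factor, had 439.6 CPM, with 139 in FLO-1 next.

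The matricellular genes CCN1 and CCN2, the usual YAP reporters, differed from each other. CCN1 had 499 CPM in OAC_5.1_C, 75.8 in ESO-26, 51.5 in OACP4_C, 35.8 in OE33, 18.8 in FLO-1, 11.3 in JH_EsoAd1, 3.07 in ESO-51, 1.71 in OE19 and 1.61 in SK-GT-4. CCN2 had 55.9 CPM in OE33, 25.8 in OAC_5.1_C, 23.4 in JH_EsoAd1, 10.3 in SK-GT-4, 5.57 in FLO-1, 2.35 in OACP4_C, 1.60 in ESO-51, 0.891 in OE19 and 0.634 in ESO-26. OAC_5.1_C was therefore highest for CCN1 and not for CCN2.

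Over the other libraries the median of the YAP target list was 1.36 in OACP4_C, 0.66 in JH_EsoAd1, 0.43 in OE33, -0.22 in FLO-1, -0.33 in OE19, -1.05 in SK-GT-4, -1.10 in ESO-51 and -1.16 in ESO-26. The reference for these libraries includes OAC_5.1_C, highest for 14 of the 25 genes, so calls below are more easily reached. SK-GT-4 and ESO-51 had 213 and 159 CPM of YAP1, among the upper 6 libraries, and 13 of 25 target genes lay at least 2-fold below in each, where 8.97% and 10% of all tested genes did. In ESO-26, lowest for YAP1, 13 of 25 lay below as well (14.4% of all tested genes). WWTR1, the paralogue of YAP1 also called TAZ, had 0.386 CPM (12 counts) in SK-GT-4, 13.8 in ESO-26, 15.9 in ESO-51, 31.2 in FLO-1, 65.3 in OAC_5.1_C, 65.7 in OE33, 109.9 in OACP4_C, 115 in OE19 and 118 in JH_EsoAd1. OAC_5.1_C was thus near the middle for WWTR1 and far above the others for YAP1.

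**Figure D4:**
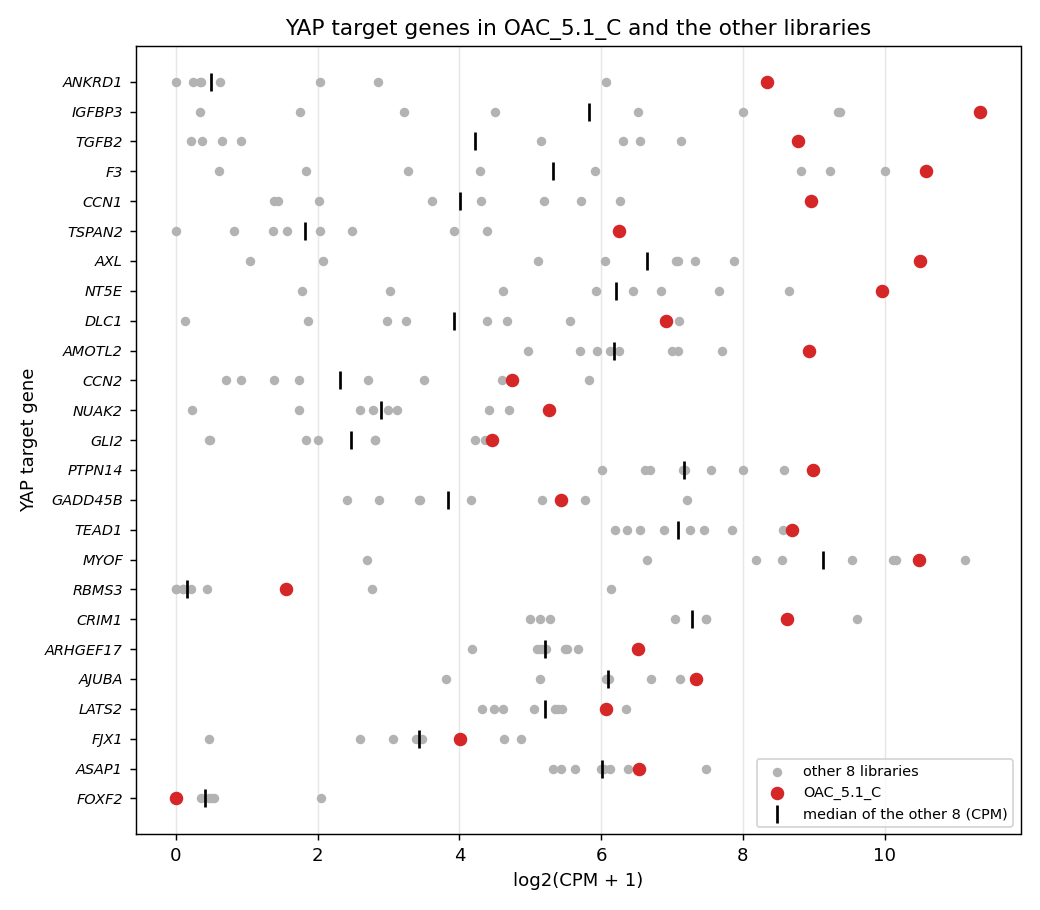
Level of the 25 YAP target genes as log2(CPM + 1), with OAC_5.1_C in red, the other 8 libraries in grey and a black tick at the median of those 8, ordered by the difference of OAC_5.1_C from that median. The red point is to the right of the tick by at least 1 for 21 genes and is the rightmost point for 14.

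Among the DNA-binding partners and cofactors of YAP, 13 were tested, 5 lay at least 2-fold above in OAC_5.1_C (12.2% of all tested genes did) and 2 below (6.97%), with a median of 0.71. TEAD1 had 414 CPM in OAC_5.1_C and 377 in OACP4_C, and TEAD4 had 36.3 CPM inside the range of the other 8 (14.9 to 45.0). VGLL1, a TEAD cofactor, had 111 CPM in OAC_5.1_C and 131 in OACP4_C and at most 8.15 elsewhere, and RUNX1 had 83.8 against 76.1 in SK-GT-4. TEAD2 lay below at 4.01 CPM.

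The Hippo kinases and scaffolds that act upstream of YAP had 24 tested genes, of which 10 lay at least 2-fold above in OAC_5.1_C (12.2% of all tested genes did) and 0 below (6.97%), with a median of 0.84. FAT4, an atypical cadherin, had 84.4 CPM in OAC_5.1_C, 45.5 in OE33 and 34.8 in ESO-26. AMOT, an angiomotin, had 94.8 CPM, with 76.5 in SK-GT-4 next, and FRMD6, a scaffold of the pathway, had 525 CPM, with 326 in JH_EsoAd1 next. AMOTL2, PTPN14, AJUBA and LATS2 belong to both this list and the YAP target list. TEAD1 belongs to both the YAP partner list and the YAP target list, so the counts of these lists share genes.

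Of 7 other tested inhibitor of apoptosis genes and antagonists, 1 lay at least 2-fold above in OAC_5.1_C and 0 below, with a median of 0.04. That is 14.3% above, near the 12.2% of all tested genes. XIAP, the direct caspase inhibitor, had 97.1 CPM in OAC_5.1_C inside the range of the other 8 (44.0 to 175.4). BIRC5, survivin, which serves in chromosome segregation, had 79.5 CPM, with 57.6 in FLO-1 next.

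The receptor complexes in which the cIAPs act had 22 tested genes, of which 3 (13.6%) lay above and 1 below, with a median of 0.17, near the 12.2% above and 6.97% below among all tested genes. The adaptor FADD had 18.2 CPM in OAC_5.1_C and 17.9 in SK-GT-4, the kinase adaptor TAB3 had 53.9 and was below OACP4_C at 70.6, and the receptor gene TNFRSF1B lay below at 2.59 CPM. In the non-canonical NF-kB list 1 of 12 tested genes, the receptor gene TNFRSF12A (182 CPM, with 359 in OACP4_C), lay above and 0 below, with a median of 0.37. That is 8.33% above, and both counts are near the 12.2% and 6.97% of all tested genes. MAP3K14, which encodes NIK, had 16.2 CPM in OAC_5.1_C inside the range of the other 8 (11 to 37.8), and NFKB2 had 53.4 CPM (13.5 to 87.5 in the others).

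Of 21 tested NF-kB target genes, 6 lay above and 2 below in OAC_5.1_C, with a median of 0.44, where 12.2% of all tested genes lay above and 6.97% below. With a pseudocount of 5 the count above was 1. CXCL8, a neutrophil chemokine, had 62.1 CPM there and 24.4 in OACP4_C, IL6 had 2.26 against 9.28 in FLO-1, and IL1B had 0.144 against 139 in OE19. The median of this list was 1.28 in FLO-1, 0.78 in OACP4_C, 0.72 in OE33, 0.66 in OE19, 0.00 in JH_EsoAd1, -0.27 in SK-GT-4, -0.44 in ESO-51 and -1.38 in ESO-26. FLO-1, OE33 and OACP4_C, the 3 libraries next highest for BIRC3, also had the 3 highest list medians, and ESO-26, with 14 BIRC3 counts, had the lowest. OAC_5.1_C, highest for BIRC3, was placed below OE19 in this list. The 2 orders parted elsewhere too. OE19 had 6.52 CPM of BIRC3, place 8 of 9, with a list median of 0.66. ESO-51 had 24.5 CPM of BIRC3, place 5 of 9, with a list median of -0.44. A relation of BIRC3 to this list was not tested. NFKB2, RELB and LTB are also in the non-canonical list, and TRAF1 and TNFAIP3 are also in the receptor complex list. TNFAIP3 is among the genes above in OAC_5.1_C in both. The receptor complex and non-canonical lists share CHUK, TRAF2 and TRAF3, so the counts of these lists share genes.

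The pathways of the remaining locus genes are read against the same shares, 12.2% above and 6.97% below. Of 25 tested dynein-2 and intraflagellar transport genes, 1 lay above (IFT74, 44.8 CPM, with 51.0 in OE33) and 1 below (WDR60, an intermediate chain of dynein-2, 5.87 CPM), with a median of 0.03. Of 11 tested genes of axonemal dyneins and their assembly, 2 lay above and 1 below, with a median of 0.11. They were DNAH5 (70.2 CPM, with 72.8 in ESO-26), DNAH11 (11.7 CPM, with 14.3 in JH_EsoAd1) and, below, DNAAF3 (0.391 CPM).

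In the cullin neddylation list, the pathway of DCUN1D5, 0 of 19 tested genes lay at least 2-fold above and 0 below, with a median of 0.25, and CUL5 had 62.8 CPM inside the range of the other 8 (47.4 to 119). Of the other TRPC channels 1 was tested and passed neither rule (-0.13). Of 5 tested angiopoietin-like genes 0 lay above and 1 below, ANGPTL4 at 0.761 CPM against 38.3 in JH_EsoAd1, with a median of 0.05. Of the marker lists, 4 of 7 epithelial, 1 of 3 haematopoietic, 1 of 4 endothelial and 2 of 6 fibroblast genes tested lay above in OAC_5.1_C and 0 below in each, against the same shares. PTPRC, the haematopoietic call, and LUM, a fibroblast call, reached 1 CPM in OAC_5.1_C alone and so had to differ.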

How the data were processed

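Total RNA of 9 oesophageal adenocarcinoma lines was measured, 1 library each, grouped by the line name in the labels. The column OACM5.1_C was read as OAC_5.1_C, whose own deposited file holds the same counts for all 9 locus genes. The authors worked with build GRCh37 and the tools FastQC 0.11.7, R 3.6.1 and STAR 2.6.1d, per the submitters' processing notes. The counting program, annotation release and strand setting are not given in the sources used here. The deposited count table holds raw whole-number counts for 52158 named genes, per the file headers. A single blank name with 0.00485% to 0.00965% of counts was left out. The deposited files of each line hold counts and the authors' FPKM with a gene length, per the file headers, and FPKM was used for ratios within a library and as an alternative.

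CPM was computed from the counts with TMM scaling factors (R 4.3.3 with edgeR 4.0.16), from 0.831 (JH_EsoAd1) to 1.11 (ESO-51), computed on genes at 1 CPM or more in at least 2 libraries. Values were log2(CPM + 1), and the 19719 genes at 1 CPM or more in at least 1 library were tested, meaning compared with the median of the other 8. Being 1 or more above or below that median is the 2-fold rule. With 1 library per line no test was possible. Intervals of CPM are exact Poisson at 95%, shares have Wilson intervals, the floor for a count of 0 is 3 counts, and all cover counting error only. Scaling by library size alone moved the median gene by -0.24 (JH_EsoAd1) to 0.13 (ESO-51) on the log2 scale relative to TMM. DESeq2 1.42.0 gave alternative size factors. The call rules were tested on simulated data with counting error alone and no spread between lines. That test cannot show how the rules act on lines that differ from each other. The rest ran in Python 3.11.15 (pandas 2.3.3, numpy 2.4.6, matplotlib 3.10.9, scipy 1.17.1).

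The genes, lists and rules were chosen with earlier results of these data known. Named are the 9 genes in every library, the protein-coding genes between them and 10 on either side. Of each list, the 3 with the largest difference in OAC_5.1_C past 2-fold and at 5 CPM or more in 1 library are named, plus WWTR1, TEAD1, TEAD4, CCN1, CCN2, XIAP, MAP3K14, NFKB2 and CUL5, and for YAP1, BIRC2 and BIRC3 the 5 genes of highest r. Further names were chosen after their values were seen. Of 233 symbols in 17 lists, 228 matched (MMP12, SEPT4, IKBKG, PIH1D3 and PECAM1 did not). GENCODE 29, on another build than the counts, gave names, biotypes and order only, and RefSeq gave the promoters. Alternatives were other scalings, FPKM, pseudocounts of 5 and 0.1, no filter, other folds and leaving out each library.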

Additional observations from a re-analysis of the deposited data

How the results depend on the processing

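The 7 tested locus genes lay at least 2-fold above the median of the other libraries in OAC_5.1_C under every alternative run, including 4-fold in place of 2-fold, other scalings and each of the other libraries left out. The share of all tested genes past 2-fold moved from 12.2% to 7.68% with a pseudocount of 5, 9.15% with the deposited FPKM, 16.7% with a pseudocount of 0.1 and 4.62% with no filter. The count at least 4-fold above the next library was 6, and 5 with the deposited FPKM and with a pseudocount of 5. The median difference of 3.36 was 3.11 with the deposited FPKM, 3.24 with a pseudocount of 5, 3.39 with a pseudocount of 0.1, 3.31 with no filter and 3.67 as a mean over the genes, and 3.35 to 3.38 without 1 other library. The count of YAP target genes, whose alternatives were chosen after seeing the data, was 21 at 2-fold, 13 at 4-fold, 16 of 21 tested with the deposited FPKM, 20 with a pseudocount of 5 and 20 to 22 without 1 other library. The count of NF-kB target genes above was 6, and 5 by library size, 4 of 18 tested with the deposited FPKM and 1 with a pseudocount of 5. With the deposited FPKM and with a pseudocount of 5, the TNF receptor complex list had 1 gene above in place of 3, the axonemal list had 0 below in place of 1, and with FPKM the YAP partner list had 3 of 12 tested above in place of 5 of 13. The cause of these shifts was not tested. In JH_EsoAd1 the deposited FPKM was low for the CPM of the locus genes. TMEM123 had 437 CPM and 9.13 FPKM there, against 429 CPM and 29.8 FPKM in SK-GT-4. Using FPKM as an alternative thus also changes the level of JH_EsoAd1 relative to other libraries. No paired analysis was possible because each line has 1 library. TRPC6 and ANGPTL5 were below 1 CPM in all libraries, so depth limits what can be said of them.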

Other observations

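Genes just beyond DYNC2H1 had their own extremes in libraries other than OAC_5.1_C. PDGFD, a platelet-derived growth factor, had 530.4 CPM in ESO-26, 6.05 in JH_EsoAd1 and at most 0.0643 in the other 7. CASP4, an inflammatory caspase, had 0.577 CPM in ESO-26 and 0.528 in OE33, and 29.4 (FLO-1) to 156 (OACP4_C) in the other 7. CASP5 had 24.0 CPM in ESO-51 and at most 0.677 elsewhere. These values have no replicate check.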
